A study of Mus musculus with 12 samples.

Results

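The 40 genes described here are markers of neutrophils, members and targets of the NF-kB pathway, and genes of the acute-phase response. They were chosen by name, with earlier results of these data known. All 40 were found by Ensembl ID and mouse symbol among the 55335 genes that both deposited count tables list. They fall into 8 roles: 17 genes belong to 3 neutrophil roles (surface receptors, granule proteins, and cytosolic, secreted or metabolic products), and 23 belong to the NF-kB, cytokine, enzyme and acute-phase roles. The study sequenced RNA from CT26, a mouse colorectal cancer line labelled wild type, in culture and as tumors under the skin of mice. It has 12 libraries in 4 groups of 3. CT26 cells received DMSO, the solvent, or 1 µM midostaurin, a multikinase inhibitor, for 48 h. Mice with CT26 subcutaneous tumors received vehicle or 40 mg/kg midostaurin, beginning on day 7 after inoculation and continuing for 2 weeks. All tumors were therefore grown from the same unmodified line, and the strain, age and number of host mice are not given in the sources used here. The vehicle tumors carry the numbers 1, 2 and 3 and the midostaurin tumors the numbers 2, 3 and 4, as the table columns do.

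NF-kB is a family of transcription factors that is held in the cytoplasm by IkB proteins. Signals such as TNF or bacterial products lead to the degradation of IkB, and the freed dimers switch on cytokines, adhesion molecules and their own inhibitors, so that IkB genes such as Nfkbia are themselves targets. Neutrophils are short-lived granulocytes that mature in the bone marrow under the growth factor G-CSF, encoded by Csf3 and sensed through Csf3r, and they carry large stores of S100a8 and S100a9 mRNA into tissue. Tumor cells can make several of the same inflammatory genes, which is why the genes that cultured CT26 cells make were separated from those they do not.

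The cell libraries held between 34787389 and 38144039 counts and the tumor libraries between 33399701 and 48109497. Levels are given as CPM, a gene's count scaled to the size of its library, with TMM, a correction for RNA composition. Nothing in the labels says that the 3 libraries of a group are separate cultures or mice, so each p-value here speaks of library spread that could be technical. 3 sets of libraries are named beside the results they touch: the midostaurin tumor numbered 3, both cell libraries numbered 1, and vehicle tumor 2. The 13 keratinocyte markers summed to 1353 CPM in vehicle tumor 2 against 2.71 to 4.85 CPM in the other 5 tumors. Vehicle tumor 1 had the highest sum of 5 red cell markers, 1992 CPM against 16.9 to 458 CPM. It also had the highest sum of 6 fibroblast markers, 1361 CPM against 230 to 633 CPM. The part of blood or fibroblasts in its levels was not tested. In bulk RNA, fewer cells of a type and less RNA per cell cannot be told apart.

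**Figure D1:**
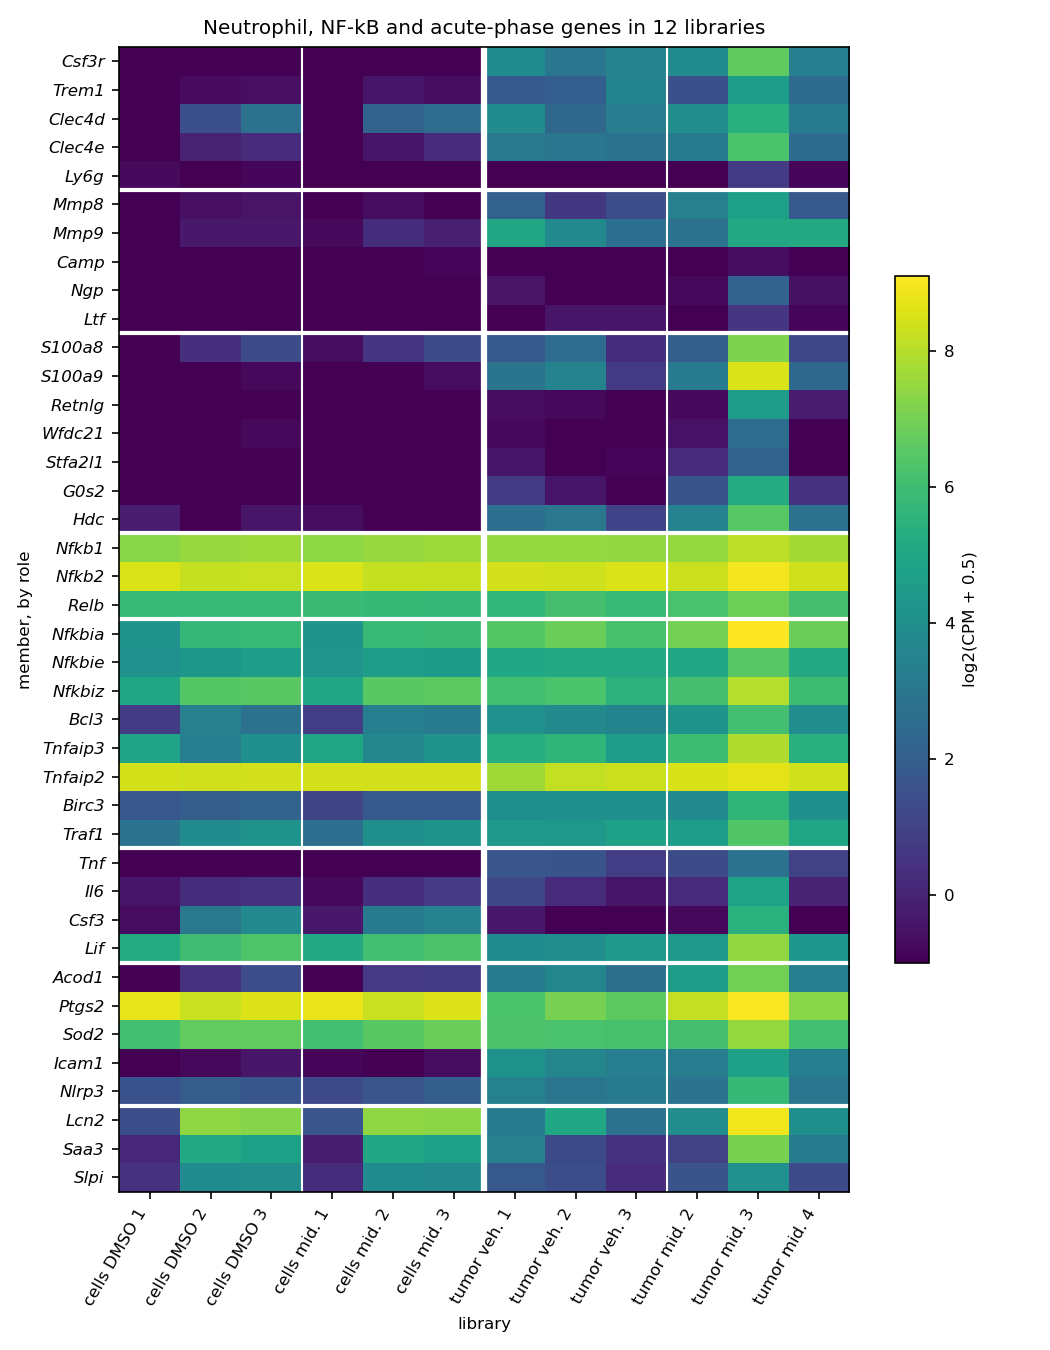
Level of each of the 40 members (rows, grouped by role) in each of the 12 libraries (columns, grouped by sample type and treatment), as colour on a log2(CPM + 0.5) scale. The column of midostaurin tumor 3 holds the highest value of the 6 tumor columns in 39 of the 40 rows, and most rows of the neutrophil roles lie at the bottom of the scale in the 6 cell columns, Clec4d and S100a8 apart.

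In tumors, the 40 genes were dominated by 1 library. Midostaurin tumor 3 held the highest value of the 6 tumors for 39 of the 40 members, the exception being Mmp9, the gelatinase of neutrophil granules and other myeloid cells, which was highest in midostaurin tumor 4. In 31 of the 40 members tumor 3 lay at least 2-fold above the next tumor. Over the 34 members with enough counts to be tested, tumor 3 was highest for 33 and at least 2-fold above the next for 27. Over all 16094 genes tested it was highest for 19.3% and at least 2-fold above the next for 1.32%. Among the other 5 tumors no library led in this way: midostaurin tumor 2 was highest in 15 members, vehicle tumor 1 in 10, midostaurin tumor 4 in 7, vehicle tumor 2 in 5 and vehicle tumor 3 in 2. The members were chosen with earlier results of these data known, so the shares set against all genes are no independent test.

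No member passed the test of midostaurin against vehicle in tumors. With edgeR's quasi-likelihood test and Benjamini-Hochberg adjustment over all genes, 0 of 34 members had an adjusted p under 0.05. At that threshold 7 of 16094 genes, or 0.0435%, passed, 5 higher and 2 lower with midostaurin, and limma-voom passed 0 members. At an unadjusted p under 0.05 the count was 11 of 34 members, against 19.9% of all genes. DESeq2 passed 1 member, Ptgs2, against 8.86% of all genes, and gave no adjusted p for 7 members (Clec4e, Il6, Lcn2, Lif, Ltf, S100a8 and S100a9). The fitted log2 fold changes of the 34 members were all above 0, with a median of 1.46 against -0.01 over all genes tested. Without midostaurin tumor 3, 22 were above 0 and 12 below, the median was 0.15 against -0.02, and the count at an unadjusted p under 0.05 was 1 (Ptgs2). The share of all genes at that unadjusted p without tumor 3 is not given here, so that count is not set against the 11.

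**Figure D2:**
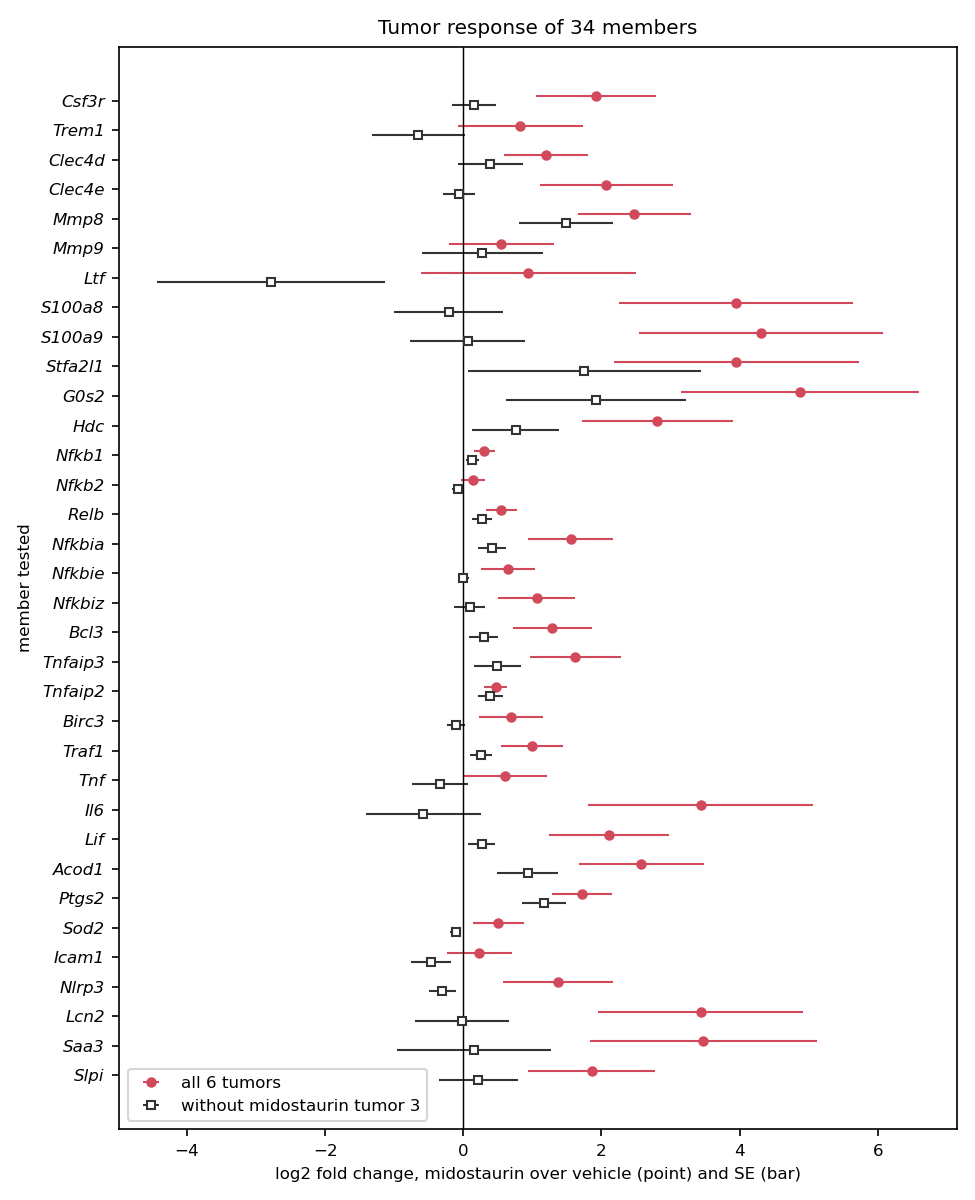
Fitted log2 fold change of midostaurin over vehicle tumors (horizontal axis, bars are the standard error) for the 34 members tested (rows, by role), with all 6 tumors (red) and without midostaurin tumor 3 (open squares). All red points lie above 0, and without tumor 3 the points lie on both sides of it, 22 above and 12 below.

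The neutrophil surface receptors Csf3r, Trem1 and Clec4e were under 1 CPM in every cell library and present in every tumor, with 1 tumor far above the rest. Csf3r, the receptor for G-CSF, measured 14.5, 7.25 and 10.8 CPM in vehicle tumors 1 to 3 and 14.2, 98.9 and 9.79 CPM in midostaurin tumors 2 to 4. Clec4e, a lectin receptor for microbial and damage-derived glycolipids also called Mincle, measured 7.74, 7.36 and 6.30 CPM with vehicle and 8.13, 75.9 and 5.48 CPM with midostaurin. In both genes the groups overlap, and tumor 3 is the single high value. The fitted log2 fold change of Csf3r was 1.92 ± 0.87 (SE; edgeR quasi-likelihood, Benjamini-Hochberg adjusted p = 0.28) and 0.15 ± 0.32 without tumor 3. That of Clec4e was 2.07 ± 0.96 (adjusted p = 0.29) and -0.07 ± 0.23 without it. Trem1, which amplifies inflammatory signals in myeloid cells, measured 3.14, 3.52 and 11.4 CPM with vehicle and 2.23, 24.3 and 5.41 CPM with midostaurin, so that vehicle tumor 3 was also above the 2 other treated tumors. Clec4d, a partner of Clec4e, ranged from 4.86 to 15.6 CPM in 5 tumors and was 39.6 CPM in tumor 3. Ly6g, the surface antigen by which mouse neutrophils are commonly sorted, had 40 counts in tumor 3, 2 in midostaurin tumor 4 and 0 in the other 4 tumors. It was too low to be tested and belongs to a family of similar genes among which reads can be divided.

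Granule genes were less uniform. Mmp8, the neutrophil collagenase, measured 3.90, 1.05 and 2.12 CPM with vehicle and 10.1, 26.2 and 3.01 CPM with midostaurin. Midostaurin tumor 4 lay below vehicle tumor 1, so the groups overlap, and the log2 fold change of 2.48 ± 0.82 had an adjusted p of 0.173 by edgeR's quasi-likelihood test (1.49 ± 0.68 without tumor 3). Mmp9 measured 32.3, 13.8 and 5.91 CPM with vehicle and 6.26, 34.1 and 35.9 CPM with midostaurin. Both groups covered nearly the same range. The granule genes transcribed mainly in the bone marrow were scarce: Ngp, a bone marrow granule protein, had 130 counts in tumor 3 and 0 to 9 in the other 5 tumors, Ltf, lactoferrin, had 33 against 0 to 11, and Camp, the cathelicidin precursor, had 5 against 0.

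The genes of the cytosolic, secreted and metabolic role showed the widest spread between tumor 3 and the rest. S100a9, which with S100a8 forms the calcium-binding heterodimer calprotectin, measured 6.96, 11.1 and 1.12 CPM with vehicle and 8.57, 365 and 4.77 CPM with midostaurin. S100a8 measured 3.17, 5.56 and 0.747 CPM with vehicle and 3.64, 139.6 and 1.80 CPM with midostaurin. Apart from tumor 3, the treated tumors lay inside the vehicle range for both genes, and vehicle tumor 3 was the lowest tumor for both. The top of that range was vehicle tumor 2, the library with 1353 CPM of keratinocyte markers. Midostaurin tumor 2 lay above the other vehicle tumors for both genes, and midostaurin tumor 4 lay between them. The part of keratinocytes in these levels was not tested. The log2 fold change of S100a9 was 4.31 ± 1.76 (adjusted p = 0.239, edgeR quasi-likelihood) with tumor 3 and 0.06 ± 0.84 without it. S100a8 gave 3.95 ± 1.69 (adjusted p = 0.257) and -0.21 ± 0.79. Hdc, histidine decarboxylase, which makes histamine, measured 5.96, 7.63 and 1.54 CPM with vehicle and 10.8, 88.6 and 6.25 CPM with midostaurin, and G0s2, a lipase inhibitor abundant in blood neutrophils, measured 1.13, 0.242 and 0 CPM with vehicle and 2.57, 36.7 and 0.902 CPM with midostaurin. For both the groups overlap through midostaurin tumor 4. Mast cells and basophils also express Hdc. The 8 markers of those cells summed to 53.4, 98.2 and 11.1 CPM in vehicle tumors 1 to 3. With midostaurin they summed to 87.5, 59.8 and 50.6 CPM in tumors 2 to 4. Their sum was highest in vehicle tumor 2, and vehicle tumor 3 was lowest both for the sum and for Hdc. The part of mast cells and basophils in the level of Hdc was not tested. Retnlg, a resistin-like secreted protein of neutrophils, reached 22.6 CPM in tumor 3 (737 counts) and 0 to 0.386 CPM in the other 5. Wfdc21 and Stfa2l1, a secreted antiprotease-like protein and a stefin of a gene family with close copies, reached 5.64 and 4.11 CPM in tumor 3 and no more than 0.205 and 0.693 CPM elsewhere.

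The summed level of the NF-kB subunits in tumor 3 was 1.42-fold above the next tumor, the smallest such ratio of the 8 roles. Nfkb2, the p100 precursor of the alternative pathway, measured 339.7, 327 and 363 CPM with vehicle and 316, 483 and 334 CPM with midostaurin. Nfkb1, the p105 precursor of the p50 subunit, measured 181, 182 and 178 CPM with vehicle and 181, 275 and 213 CPM with midostaurin. Relb, the partner of p52, measured 51.0, 69.2 and 56.7 CPM with vehicle and 72.6, 116 and 69.6 CPM with midostaurin. All 3 treated values of Relb exceed all 3 vehicle values, by a small margin in midostaurin tumor 4. Its log2 fold change was 0.55 ± 0.22 (adjusted p = 0.238, edgeR quasi-likelihood) and 0.27 ± 0.14 without tumor 3. In tumor 3 the 3 subunits exceeded the next tumor by 1.29-fold (Nfkb1), 1.33-fold (Nfkb2) and 1.60-fold (Relb).

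The IkB proteins and feedback regulators summed to 2.44-fold above the next tumor in tumor 3, with Tnfaip2 least apart. Nfkbia, which encodes IkB alpha, measured 85.6, 113 and 71.1 CPM with vehicle and 128, 548 and 112 CPM with midostaurin. Tumor 3 was 4.29-fold above the next tumor, and the groups overlap narrowly between vehicle tumor 2 and midostaurin tumor 4. The log2 fold change was 1.55 ± 0.62 (adjusted p = 0.233, edgeR quasi-likelihood), and 0.42 ± 0.20 without tumor 3. Tnfaip2, a TNF-induced protein that shapes membrane protrusions, measured 204, 285 and 309 CPM with vehicle and 361, 406 and 334 CPM with midostaurin. Here the groups do not overlap and tumor 3 was 1.13-fold above the next tumor. Its log2 fold change of 0.47 ± 0.17 (adjusted p = 0.191, edgeR quasi-likelihood; 0.0554 to 0.464 over the alternatives) was 0.39 ± 0.18 without tumor 3. Birc3, the ubiquitin ligase cIAP2, measured 16.0, 16.2 and 15.9 CPM with vehicle and 13.5, 47.9 and 16.2 CPM with midostaurin. The other 5 members of the role had their highest value in tumor 3 too: Tnfaip3, the deubiquitinase A20, at 237 CPM against 23.1 to 62.7, Nfkbiz, IkB zeta, at 253 against 44.8 to 75.1, Bcl3, a nuclear IkB protein, at 66.9 against 11.2 to 18.5, Traf1, a TNF receptor adaptor, at 81.4 against 20.3 to 29.9, and Nfkbie, IkB epsilon, at 89.3 against 32.8 to 33.7 CPM. Bcl3, Nfkb2, Tnfaip2 and Icam1 each share exon positions with a gene on the other strand. The libraries were made with a strand-marking kit, and the strand setting of the counting is not given in the sources used here.

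Relb, Tnfaip2 and Ptgs2 were the 3 members of 34 whose 3 treated values all exceeded the 3 vehicle values. Over all genes tested 13.5% did so. Without tumor 3 the same 3 members still did, against 18.6% of all genes. Both shares of members were below the background. In the other direction, without tumor 3 the treated values of 2 of 34 members, Sod2 and Nlrp3, lay below all 3 vehicle values, against 18.7% of all genes, so that share was below the background too.

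Promoter sequence is shown for 4 members that stood high together in tumor 3 and that carry a motif of NF-kB or of C/EBP, the factor family that drives granulocyte and acute-phase genes. Each sequence is from RefSeq on GRCm38.p6 and runs 5′ to 3′ on the gene's strand, from upstream of the annotated start to just past it. Capitals mark matches to the kappaB consensus or to TTGCNNAA, both searched on both strands.
Nfkbia promoter, chr12:55492598-55492897, minus strand: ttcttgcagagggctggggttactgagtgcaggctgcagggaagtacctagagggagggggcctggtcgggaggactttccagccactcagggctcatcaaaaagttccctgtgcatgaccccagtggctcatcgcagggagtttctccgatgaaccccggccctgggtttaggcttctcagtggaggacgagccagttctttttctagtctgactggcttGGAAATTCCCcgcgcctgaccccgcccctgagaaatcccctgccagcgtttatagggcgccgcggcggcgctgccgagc
Il6 promoter, chr5:30012864-30013163, plus strand: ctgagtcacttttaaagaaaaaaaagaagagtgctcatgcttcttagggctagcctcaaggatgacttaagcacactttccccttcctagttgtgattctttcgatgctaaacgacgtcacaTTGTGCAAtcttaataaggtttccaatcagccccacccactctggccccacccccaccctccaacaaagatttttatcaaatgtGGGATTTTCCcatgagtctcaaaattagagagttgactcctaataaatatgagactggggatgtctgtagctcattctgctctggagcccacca
Lcn2 promoter, chr2:32387690-32387989, minus strand: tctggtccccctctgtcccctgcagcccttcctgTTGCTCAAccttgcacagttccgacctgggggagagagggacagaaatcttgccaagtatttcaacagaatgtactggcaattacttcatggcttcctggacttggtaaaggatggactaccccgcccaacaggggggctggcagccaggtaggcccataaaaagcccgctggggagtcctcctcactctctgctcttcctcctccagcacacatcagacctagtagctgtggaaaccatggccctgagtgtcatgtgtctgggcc
S100a9 promoter, chr3:90695672-90695971, minus strand: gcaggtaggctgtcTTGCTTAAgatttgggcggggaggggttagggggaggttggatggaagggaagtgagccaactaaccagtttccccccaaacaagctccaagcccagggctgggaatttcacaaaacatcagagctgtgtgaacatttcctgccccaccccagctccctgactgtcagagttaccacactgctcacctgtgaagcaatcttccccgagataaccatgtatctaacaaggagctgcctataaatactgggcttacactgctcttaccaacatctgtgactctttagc
The kappaB match of Nfkbia, GGAAATTCCC, begins at position -29, counted from the annotated start base, and that of Il6, GGGATTTTCC, at -44. The C/EBP matches begin at -128 in Il6, -216 in Lcn2 and -236 in S100a9. Of the 40 members, 34 had a promoter in the table. The kappaB consensus was found in 12 of these 34 (Csf3r, Camp, Nfkb2, Nfkbia, Nfkbie, Bcl3, Tnfaip3, Tnfaip2, Il6, Lif, Sod2 and Nlrp3), and in 8.46% of all 32851 promoters or 9.55% of genes. TTGCNNAA was found in 12 of the 34 (Clec4e, Ly6g, Mmp8, Ngp, Ltf, S100a9, Retnlg, Il6, Ptgs2, Lcn2, Saa3 and Slpi), and in 10.8% of promoters or 12.2% of genes. Il6 was the one member with both. A match is a stretch of letters and says nothing of binding in these samples.

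The 4 inflammatory cytokines each had their highest value in tumor 3, from 2.43-fold (Tnf) to 144-fold (Csf3) above the next tumor. Lif, an IL-6 family cytokine, measured 14.5, 14.9 and 21.2 CPM with vehicle and 21.3, 177 and 19.1 CPM with midostaurin. Il6, whose promoter is shown above, measured 1.81, 0.672 and 0.233 CPM with vehicle and 0.693, 28.1 and 0.515 CPM with midostaurin. Csf3, the gene of G-CSF, measured 0.302, 0 and 0 CPM with vehicle and 0.0770, 43.4 and 0 CPM with midostaurin, which is 1414 counts in tumor 3 and 12, 3 or 0 counts in each of the others. In all 3 genes the other treated tumors lay within or next to the vehicle range. The log2 fold change of Lif was 2.11 ± 0.87 (adjusted p = 0.245, edgeR quasi-likelihood) and 0.27 ± 0.19 without tumor 3. Il6 gave 3.44 ± 1.63 (adjusted p = 0.296) and -0.58 ± 0.83. Csf3 was left untested by the low-count filter. Tnf measured 2.69, 2.58 and 1.31 CPM with vehicle and 2.03, 6.53 and 1.44 CPM with midostaurin.

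Among the induced enzymes, Ptgs2 had the smallest p of the members. Ptgs2 encodes cyclooxygenase-2, the inducible enzyme of prostaglandin synthesis, and measured 75.1, 129 and 92.4 CPM in vehicle tumors 1 to 3 and 285, 531 and 157 CPM in midostaurin tumors 2 to 4. All 3 treated tumors lay above all 3 vehicle tumors. The log2 fold change was 1.72 ± 0.44 (SE; adjusted p = 0.119, edgeR quasi-likelihood), and 1.17 ± 0.32 (adjusted p = 0.195) without tumor 3. Its adjusted p ran from 0.0224 to 0.444 over the alternatives, and the lowest, from DESeq2, was the one under 0.05. Acod1, which makes itaconate in activated myeloid cells, measured 8.47, 11.8 and 6.05 CPM with vehicle and 23.8, 123 and 9.51 CPM with midostaurin, with a log2 fold change of 2.58 ± 0.90 (adjusted p = 0.188, edgeR quasi-likelihood; 0.93 ± 0.45 without tumor 3). Sod2, the mitochondrial superoxide dismutase, measured 77.0, 73.1 and 72.0 CPM with vehicle and 69.8, 178 and 67.3 CPM with midostaurin. Icam1, the adhesion ligand of leukocyte integrins, measured 17.8, 11.4 and 9.38 CPM with vehicle and 8.88, 26.7 and 9.79 CPM with midostaurin. Nlrp3, an inflammasome sensor, was 53.2 CPM in tumor 3 and 6.77 to 10.2 CPM in the other 5. For Sod2, Icam1 and Nlrp3, tumor 3 was the 1 treated library above the vehicle range.

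The 3 acute-phase and antiprotease genes, like the cytokines, each had their highest value in tumor 3. Lcn2, the siderophore-binding protein of neutrophil granules and inflamed epithelium, measured 8.75, 31.8 and 6.40 CPM with vehicle and 15.1, 474 and 15.9 CPM with midostaurin. Saa3, a serum amyloid A made outside the liver, measured 10.0, 1.91 and 0.910 CPM with vehicle and 1.44, 133 and 8.09 CPM with midostaurin. Slpi, an inhibitor of neutrophil elastase, was 16.6 CPM in tumor 3 and 0.724 to 2.92 CPM elsewhere. Without tumor 3 the treated values of Lcn2, of Saa3 and of Slpi lay inside the vehicle ranges. For Lcn2 the top of that range, 31.8 CPM, was vehicle tumor 2, the library with 1353 CPM of keratinocyte markers. Midostaurin tumors 2 and 4, at 15.1 and 15.9 CPM, lay above the other vehicle tumors, at 8.75 and 6.40 CPM. The part of keratinocytes in these levels was not tested. The log2 fold change of Lcn2 was 3.43 ± 1.48 (adjusted p = 0.26, edgeR quasi-likelihood) with tumor 3 and -0.02 ± 0.68 without it, and that of Saa3 was 3.47 ± 1.65 (adjusted p = 0.296) and 0.15 ± 1.11.

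Per kilobase of exon, the most abundant members in tumor 3 were S100a9 at 699 CPM per kb, Nfkbia at 340.3, S100a8 at 201, Lcn2 at 181 and Ptgs2 at 116. By role, the members' median log2 change with and without tumor 3 was 1.56 and 0.04 for surface receptors, 0.94 and 0.28 for granule proteins, and 3.95 and 0.76 for the cytosolic, secreted and metabolic role. It was 0.31 and 0.13 for NF-kB subunits, 1.03 and 0.28 for IkB proteins and feedback regulators, and 2.11 and -0.34 for cytokines. It was 1.36 and -0.11 for enzymes, adhesion and sensor, and 3.43 and 0.15 for acute-phase genes. These medians leave out the 6 members not tested (Ly6g, Camp, Ngp, Retnlg, Wfdc21 and Csf3).

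Of the 17 neutrophil-role genes, 15 were under 1 CPM in every cell library, all but Clec4d and S100a8. The limit separates them from what cultured CT26 cells make and not from other cells of the tumor, since Mmp9, Trem1 and Hdc are also made by other myeloid cells. The summed level of the 15 was 0.253 to 1.90 CPM in the 6 cell libraries, 39.5 to 76.2 CPM in 5 tumors and 788 CPM in tumor 3, which was 10.3-fold above the next tumor. The 16 members that cultured cells make summed to 1238 to 1678 CPM in 5 tumors and 4017 CPM in tumor 3, 2.39-fold above the next. Of these 15 genes, 13 allow a ratio of tumor 3 to the mean of the other 5 tumors, with a median of 13.8 (1.81, Mmp9, to 162, Retnlg). For the 16 made by cells the median was 3.45 (1.36 to 30.4), and over all genes tested it was 0.985. So both classes were higher in tumor 3, the first by the larger median. Neither class holds Clec4d, S100a8, Tnf, Il6, Csf3, Acod1, Icam1, Saa3 and Slpi. Their ratios were, in that order, 3.80, 46.8, 3.25, 35.9, 573, 10.3, 2.33, 29.6 and 8.05. Of these, Clec4d, Csf3, Saa3 and Slpi miss the class made by cells only through the cell libraries numbered 1. The 10.3-fold excess is that of the 15 neutrophil-role genes under 1 CPM in cells. A list of 40 other neutrophil genes summed to 2600 CPM in tumor 3 and 778 to 1901 CPM in the other 5 tumors. That sum was 1.37-fold above the next tumor, with 29 of the 40 highest and 1 lowest in tumor 3. In the 6 cell libraries these 40 genes summed to 27.5 to 126 CPM.

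**Figure D3:**
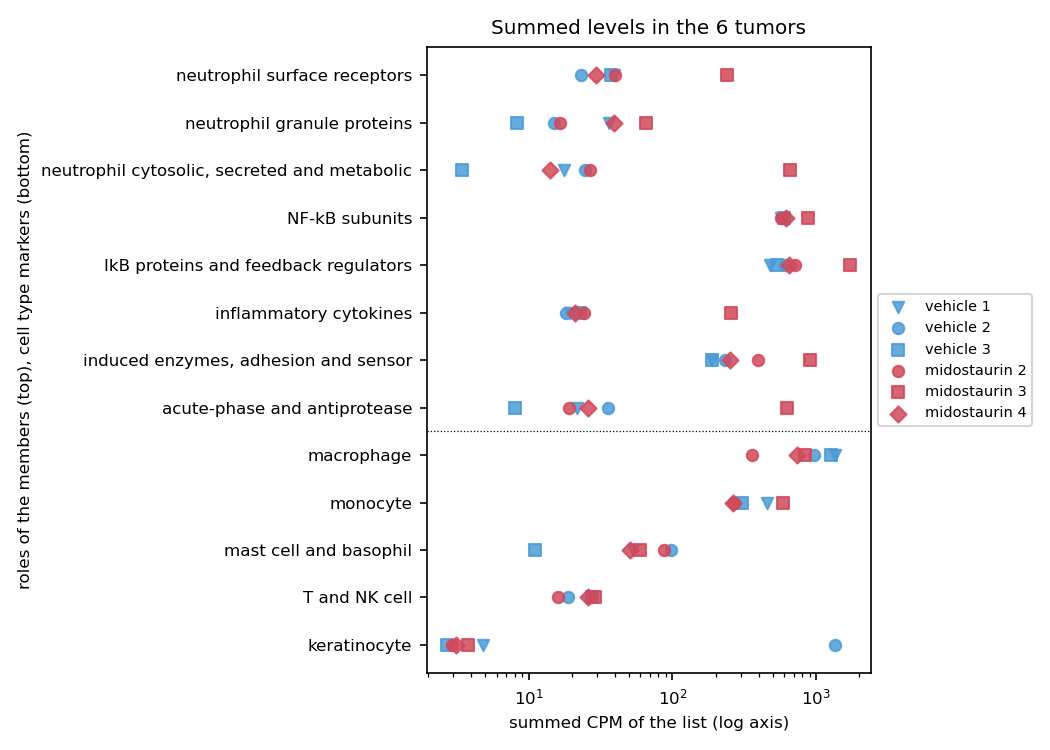
Summed CPM (horizontal, log axis) of each of the 8 roles of the members (upper rows) and of marker lists of 5 other cell types (lower rows) in each of the 6 tumors (points; blue vehicle, red midostaurin, shape by number). The red square of midostaurin tumor 3 is the rightmost point in all 8 roles and, among the marker lists, in those of monocytes and of T and NK cells; the keratinocyte row has its far point in vehicle tumor 2, at 1353 CPM.

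Marker lists of other cell types were summed in the same way. The 12 macrophage markers summed to 841 CPM there, 959 to 1362 CPM with vehicle, and 356 and 734 CPM in the other treated tumors. Of the 12, 0 were highest in tumor 3. The 6 monocyte markers summed to 586 CPM against 265 to 452 CPM elsewhere, with 2 of 6 highest in tumor 3. The 7 T and NK cell markers summed to 29.1 against 16.0 to 27.5 CPM, the 6 dendritic cell markers to 14.3 CPM, 1.10-fold above the next tumor, and the 6 eosinophil markers to at most 0.578 CPM in any tumor, with Epx and Il5ra at 0 in all 6. The 5 skeletal muscle markers summed to 47.9 CPM in tumor 3, 29.4 CPM in vehicle tumor 1 and 0.180 to 2.85 CPM in the rest. The 13 mitochondrially encoded mRNAs summed to 11016 CPM in tumor 3 against 16025 to 29227 CPM, and each of the 13 was lowest there. Tumor 3 also had the smallest total count. The part of monocytes, muscle tissue or RNA quality in the levels of tumor 3 was not tested.

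In cultured cells midostaurin left no member past the test. Of 25 members tested, 0 passed at an adjusted p under 0.05 by edgeR's quasi-likelihood test, DESeq2 or limma-voom, and 0 had an unadjusted p under 0.05 in edgeR. Of all 14538 genes tested 0 passed, or 0%. With the culture number as a block, 8 genes or 0.055% passed, of which 0 were members. In that fit 1 member had an unadjusted p under 0.05. The share of all genes at that unadjusted p is not given here, with the block or without it, so neither count is read further. With the block, the log2 fold changes of the members ran from -0.51 (Birc3, SE 0.20) to 1.11 (Mmp9, SE 0.59). Their median size was 0.07, and 23 of 25 were within 0.5 of 0. The smallest adjusted p of a member was 0.992 in the fit with the block.

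Of the 40 members, 16 measured at least 1 CPM in each DMSO library and are called made by cultured cells: Nfkb1, Nfkb2, Relb, Nfkbia, Nfkbie, Nfkbiz, Bcl3, Tnfaip3, Tnfaip2, Birc3, Traf1, Lif, Ptgs2, Sod2, Nlrp3 and Lcn2. Just inside that limit were Bcl3 at 1.22 CPM and Lcn2 at 2.22 CPM in their lowest DMSO library, and just outside it Slpi at 0.872 CPM and Saa3 at 0.623 CPM. Another 13 averaged under 0.1 CPM over the 6 cell libraries, 7 of them with 0 counts in all 6. The remaining 11 lay in between. Cultured cells thus made all members of the subunit and IkB roles. Ptgs2 was among their most abundant, at 422, 307 and 374 CPM with DMSO and 433, 301 and 377 CPM with midostaurin. S100a8 had 30 and 72 counts in DMSO libraries 2 and 3 and 35 and 72 in the midostaurin libraries of the same numbers, while S100a9 had 0, 3, 0 and 5 in these.

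The larger difference among cell libraries was between numbers, not treatments. The libraries numbered 1, of both treatments, lay below the other 4 by at least 2-fold in 15 of 25 tested members (7.06% of all genes) and above them in 1, Tnfaip3 (4.82% of all genes). Lcn2 measured 2.22, 171 and 154 CPM in DMSO libraries 1, 2 and 3, and 2.68, 169.9 and 161 CPM in the midostaurin libraries. Saa3 measured 0.623, 34.9 and 26.1 CPM with DMSO and 0.405, 33.1 and 25.2 CPM with midostaurin. Csf3 measured 0.125, 7.75 and 13.3 CPM with DMSO and 0.304, 8.31 and 10.8 CPM with midostaurin. In each of these genes both libraries numbered 1 were far below the other 4, at about equal levels with and without the drug. Slpi, at 0.872 and 0.734 CPM in libraries 1 against 13.6 to 15.6, followed the same order. Clec4d had 0 counts in both libraries numbered 1 and 81 to 226 in the other 4, at least 61.0-fold higher against a floor of 3 counts per library. Nfkbia measured 17.8, 51.9 and 57.3 CPM with DMSO and 18.3, 55.6 and 58.9 CPM with midostaurin. Lif, Nfkbiz, Bcl3 and Traf1 were lower in libraries 1 as well. Tnfaip3 went the other way, with 29.5, 9.87 and 16.4 CPM with DMSO and 30.4, 12.3 and 17.4 CPM with midostaurin. Without the libraries numbered 1, 20 members rather than 16 meet the 1 CPM rule, the 4 added being Clec4d, Csf3, Saa3 and Slpi. What the number stands for is not given in the sources used here.

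**Figure D4:**
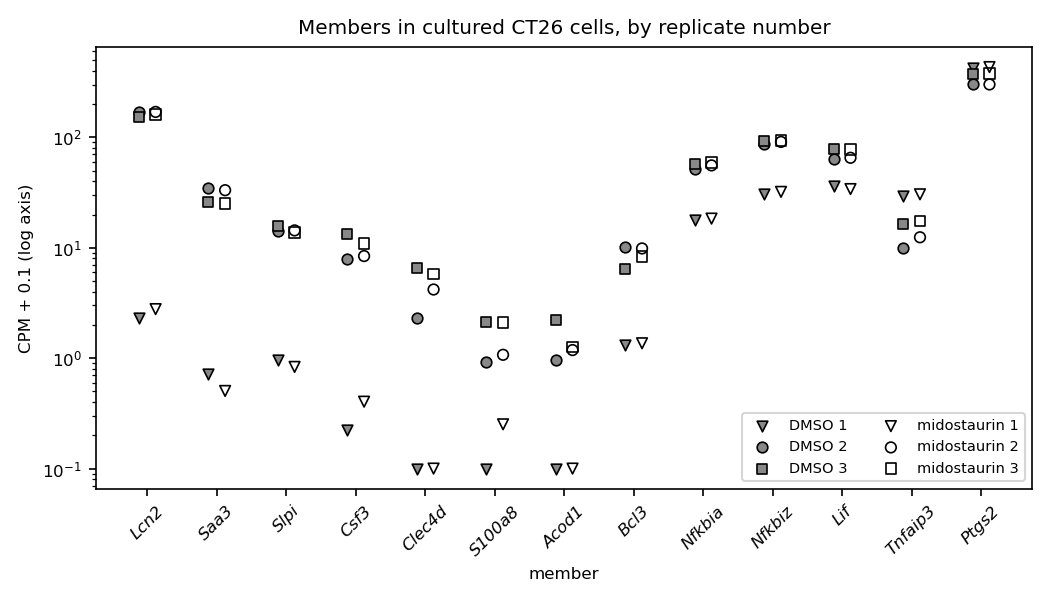
CPM plus 0.1 (vertical, log axis) of 13 members (horizontal) in the 6 cell libraries, with the library number as the shape and DMSO filled, midostaurin open. In Lcn2, Saa3, Slpi and Csf3 both triangles (number 1) lie far below the circles and squares (numbers 2 and 3), in Tnfaip3 they lie above them, and filled and open symbols of a number lie close together.

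Vehicle tumors were compared with DMSO cells in 1 fit of all 4 groups, to see which members the tumor adds to what the cells make. Of 33 members tested, 10 were higher in tumors by edgeR's quasi-likelihood test with Benjamini-Hochberg adjustment, where 24.5% of 16965 genes were, and 1 was lower, where 19.7% of genes were. The 10 were Csf3r, Trem1, Clec4e, Mmp8, Mmp9, S100a9, Hdc, Tnf, Birc3 and Icam1, so 7 of them are neutrophil-role genes. Of these 7, Mmp9, Trem1 and Hdc are also made by other myeloid cells. Among the neutrophil-role genes not called, Clec4d had 560, 181 and 380 counts in vehicle tumors 1 to 3, and S100a8 126, 207 and 32. G0s2 had 45, 9 and 0, Ltf 0, 10 and 11, and Stfa2l1 10, 0 and 2. Ngp had 9, 0 and 0, Retnlg 5, 3 and 0, and Wfdc21 3, 0 and 0. Ly6g and Camp had 0 in all 3. Icam1 rose from 0.113 ± 0.130 to 12.9 ± 4.41 CPM (SD, n = 3; log2 fold change 6.85 ± 0.89 SE, edgeR adjusted p = 0.000201). Birc3 rose from 3.48 ± 0.688 to 16.0 ± 0.149 CPM (2.20 ± 0.45, edgeR adjusted p = 0.00269). Mmp9 rose by 6.42 ± 1.12, Trem1 by 6.00 ± 1.27, Hdc by 4.55 ± 1.30, Clec4e by 4.20 ± 1.28 and Mmp8 by 4.18 ± 1.12 on the log2 scale. Csf3r and Tnf had 0 counts in every cell library and were at least 134-fold and at least 27.1-fold higher in vehicle tumors against the floor of 3 counts per library. S100a9 had 3 counts over the DMSO libraries, and the ratio of vehicle tumors to cells was 229 (95% counting interval 78.0 to 1113, which covers counting error only). Ptgs2 fell from 368 ± 57.9 to 98.8 ± 27.4 CPM (log2 fold change -1.90 ± 0.39, edgeR adjusted p = 0.00281). The treated tumors, which are not part of that contrast, had a mean of 325 ± 190.0 CPM (SD, n = 3). limma-voom passed 4 of these 11 members (Birc3, Tnf, Icam1 and Ptgs2), none of the 7 neutrophil-role genes among them: its adjusted p was 0.0513 for Csf3r, 0.053 for Trem1, 0.052 for Mmp9, 0.104 for Clec4e, 0.107 for Mmp8, 0.188 for Hdc and 0.424 for S100a9. Over the alternatives the adjusted p of Csf3r ran from 4.55e-10 to 0.0513, and that of S100a9 from 0.00166 to 0.424. limma-voom also passed Tnfaip2, lower in tumors, with an adjusted p of 0.0492. DESeq2 passed 10 of the 11, gave no adjusted p for S100a9, and passed Csf3 as lower in tumors. The shares of all genes that limma-voom and DESeq2 passed in this comparison are not given here, so these counts are not read further. In edgeR, S100a9 was lost without DMSO library 1, 2 or 3 or vehicle tumor 2, Hdc without DMSO library 2 or 3, and Clec4e without DMSO library 2. Culture and tumor samples cannot be told apart from separate handling of the 2 sets.

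**Figure D5:**
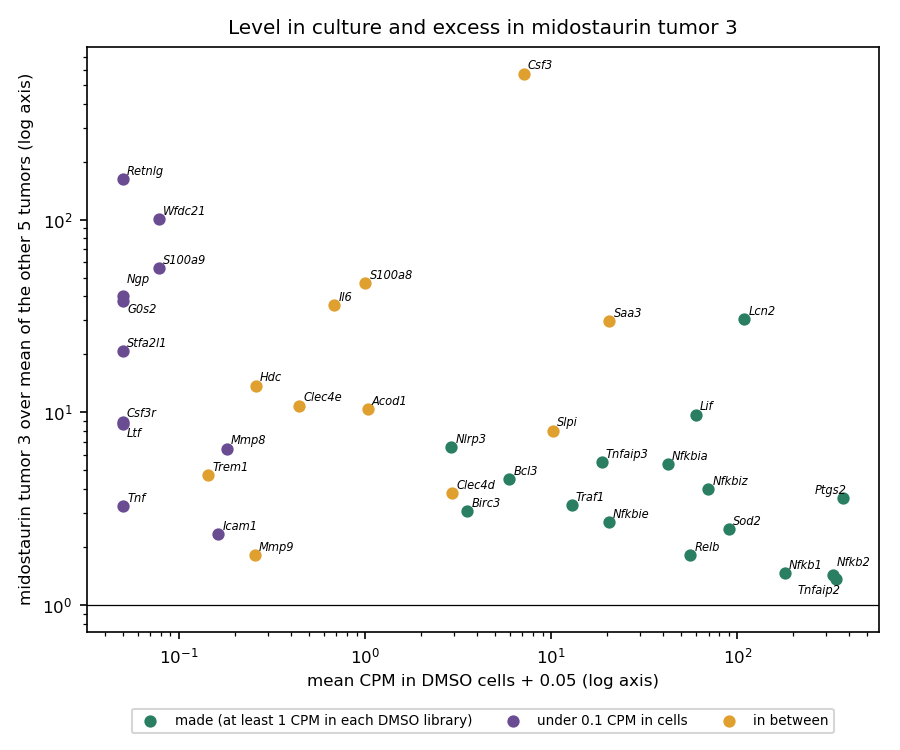
Mean CPM in the DMSO cell libraries plus 0.05 (horizontal, log axis) against the ratio of midostaurin tumor 3 to the mean of the other 5 tumors (vertical, log axis) for each member with a ratio; colours mark members made by cells, under 0.1 CPM over the 6 cell libraries, or in between. Members at every level in culture lie above 1, with Csf3, Retnlg and Wfdc21 at the top and Tnfaip2, Nfkb2 and Nfkb1 nearest to 1.

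The drug's effect in tumors minus its effect in cells was tested directly. Of 33 members, 0 passed with edgeR's quasi-likelihood test, against 1 of 16965 genes or 0.00589%, and 3 had an unadjusted p under 0.05. The share of all genes at that unadjusted p is not given here, so the count of 3 is not read further. DESeq2 and limma-voom passed 0 members too. With the cell number as a block 16 genes or 0.0943% passed, and 0 members. The difference had a median log2 value of 1.50 over the members against -0.02 over all genes, and 0.20 without midostaurin tumor 3.

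Other genes of the same pathways, listed by name, gave the following in the tumor comparison, in which 0 genes of these lists passed edgeR's test. Of 35 other neutrophil genes tested, 27 were above 0 and 8 below, with their median log2 change at 1.08, and at 0.02 without tumor 3. Of 34 other NF-kB pathway genes, 26 were above and 8 below (median 0.22, and 0.09 without tumor 3), of 27 other NF-kB targets 24 and 3 (0.73 and 0.16), and of 18 genes of IL-6 family signalling and the acute phase 14 and 4 (0.66 and 0.14). In several of the genes with the smallest p, the groups do not overlap with or without tumor 3. These genes were picked by that p, which favours groups that do not overlap. Over all genes tested, all treated values exceeded all vehicle values in 13.5%. Without tumor 3 the treated values lay above all vehicle values in 18.6% and below them in 18.7%. Irf1, an interferon-responsive transcription factor, measured 98.0, 78.9 and 62.3 CPM with vehicle and 213, 183 and 129.8 CPM with midostaurin (log2 fold change 1.14 ± 0.23, edgeR adjusted p = 0.0907; 1.11 without tumor 3). Irak2, a kinase of Toll-like receptor signalling, measured 15.6, 15.6 and 13.6 CPM with vehicle and 27.0, 43.0 and 23.6 CPM with midostaurin (1.06 ± 0.23, edgeR adjusted p = 0.0974). Both genes were higher in 3 of 3 treated tumors than in any vehicle tumor, and neither passed the threshold. Il11, an IL-6 family cytokine, measured 10.6, 22.2 and 18.5 CPM with vehicle and 27.9, 50.1 and 64.7 CPM with midostaurin (1.48 ± 0.37). Plau, the urokinase-type plasminogen activator, measured 143, 94.4 and 60.8 CPM with vehicle and 34.6, 33.2 and 56.7 CPM with midostaurin (-1.26 ± 0.34). Lifr, the receptor of LIF, measured 15.5, 8.46 and 10.2 CPM with vehicle and 1.69, 5.52 and 4.85 CPM with midostaurin (-1.50 ± 0.45). Nos2, the inducible nitric oxide synthase, was 138 CPM in tumor 3, 33.2 and 14.5 CPM in the other treated tumors and 3.29 to 12.0 CPM with vehicle, and its log2 fold change of 2.94 ± 0.89 was 1.57 without tumor 3. Mxd1, a repressor of the MYC network, was 108 CPM in tumor 3 and 17.3 to 41.5 CPM in the other 5, with a log2 fold change of 1.63 ± 0.46, and 0.90 without tumor 3. C3, the central complement protein, was 179 CPM in tumor 3 and 37.5 to 78.7 CPM in the other 5, with 1.25 ± 0.43, and 0.61 without tumor 3. The remaining named genes moved less when tumor 3 was left out: Slfn4 from 1.08 ± 0.32 to 0.76, Ltb4r1 from -0.98 ± 0.28 to -1.22, Chuk at 0.27 ± 0.07 and 0.27, and Tnfrsf11a at -1.17 ± 0.33 and -1.17. None of these adjusted p-values was under 0.05 by edgeR's quasi-likelihood test.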

How the data were processed

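RNA was poly(A)-selected and made into directional libraries, per the labels' protocols. The authors deposited 2 tables of whole-number counts per Ensembl gene, one for cells and one for tumors; the submitters' processing notes name FastQC 0.11.2, Bowtie2 2.3.4, RSEM (version not given) and the build mm10. RSEM divides reads between similar genes, so members of gene families are less certain. Symbols and positions matched 55154 of 55335 IDs. Tumor columns of treated samples are numbered 2, 3 and 4 and the labels number them 1, 2 and 3: columns 2 and 3 were matched by name, and column 4 was taken, from its name, as a treated tumor whose label number is unknown. No value column was left unmapped (0).

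Each comparison was fitted over all genes with edgeR 4.0.16 in R 4.3.3 (filterByExpr, TMM, glmQLFit, glmQLFTest) on the deposited counts, with Benjamini-Hochberg adjustment over all genes tested and a threshold of 0.05. The tumor and cell comparisons used their own 6 libraries; vehicle tumors against DMSO cells and the difference of the responses used all 12. DESeq2 1.42.0, limma-voom (limma 3.58.1), other size factors, no filter, leaving out each library and a replicate block were alternatives, and leaving out both cell libraries numbered 1 was added after the data were seen. Library totals ran from 33399701 to 48109497; a count of 3 per library was the floor. Intervals and floors cover counting error only. Scripts were tested on simulated data. Those data had the same spread for every gene and no library set apart. They do not show how the tests behave with a library such as midostaurin tumor 3. All members are accounted for. The values of every tumor are given for members called in any comparison and for members whose tumor groups do not overlap. They are also given for the 2 with the smallest p and the 2 most abundant of each role. Values of single cell libraries are given for only some of these. Up to 3 genes of smallest p stand for each other pathway list. The members and lists were chosen with earlier results of these data known.

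Pairing by number was checked from the deviations of log2 CPM from the group means: cell libraries of the same number correlated at 0.96, 0.88 and 0.85, so the numbers pair them, and tumors numbered 2 and 3 at 0.15 and -0.18, so they do not. The pairing of the cells comes from the data and not from the labels. No pair of libraries in a group agreed within sampling noise.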

Additional observations from a re-analysis of the deposited data

How the results depend on the processing

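The count of genes called in the tumor comparison, 7, became 1426 with DESeq2, 16 with limma-voom, 0 without the low-count filter, 0 with the replicate block over tumors numbered 2 and 3, and 0 to 1 when any 1 of the 6 libraries was left out. Members called there were 0 in every alternative run except DESeq2, with 1 (Ptgs2, log2 fold change 1.72). In cells, 0 genes became 2 with DESeq2, 2 with limma-voom, 1 with total counts, 8 with the replicate block and 1 without both libraries numbered 1, and members called stayed at 0. For vehicle tumors against DMSO cells, 11 members called became 5 with limma-voom (4 of the 11 and Tnfaip2) and 8 to 15 when 1 library was left out, 15 being without midostaurin tumor 3, which enters that fit only through the shared spread. The shares of all genes called in those runs are not given here, so the changes are not read as particular to the members. For the difference of the responses, 1 gene called became 99 with DESeq2, 16 with the replicate block in cells, 6 without midostaurin tumor 4 and 0 without both cell libraries numbered 1; members called stayed at 0.

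The direction of 12 members turned in the tumor comparison without midostaurin tumor 3. Over fits that left out 1 tumor each, their log2 fold change ran, from the value without midostaurin tumor 3 to the highest, from -0.65 to 1.68 for Trem1, -0.065 to 2.56 for Clec4e, -2.78 to 1.54 for Ltf, -0.21 to 4.65 for S100a8, -0.075 to 0.25 for Nfkb2, -0.11 to 1.00 for Birc3, -0.34 to 0.97 for Tnf, -0.58 to 4.45 for Il6, -0.11 to 0.75 for Sod2, -0.46 to 0.55 for Icam1, -0.30 to 1.79 for Nlrp3 and -0.016 to 4.49 for Lcn2. Ltf also turned with limma-voom (-0.26) and with the replicate block (-0.17). The other 386 member values of that comparison kept their direction and side of the threshold. The count of members made by cultured cells, 16, was 18 at 0.5 CPM, 12 at 5 CPM, 20 by the mean and 16 to 20 when 1 DMSO library was left out. The causes were not tested. Depth limits Ly6g, Camp, Ngp and Ltf, which had at most 130 counts in any tumor.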
